A study of Drosophila melanogaster with 64 samples.

Results

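The genes described here had more RNA in larval than in adult testes of the control line of a Drosophila melanogaster translocation study. Members were chosen by measured values, the expression levels of the parental line: a gene was taken if its mean over the 4 parental libraries of late third-instar (L3) testes was at least 5 CPM (counts per 1000000 counts of the library) and its mean over the 4 adult parental libraries was at most the L3 mean divided by 3. Symbols beginning with E(spl), Lsp, RpL or RpS, and br, were left out. The rule gave 53 of 17606 genes, and 8659 genes reached the L3 level alone. It set aside 8 more by symbol, the larval serum protein genes Lsp1alpha, Lsp1beta, Lsp1gamma and Lsp2, the Notch targets E(spl)malpha-BFM, E(spl)m2-BFM and E(spl)mbeta-HLH, and br. Because the members were selected on the parental libraries, parental values and comparisons with them are description only, and every test uses the 7 translocation lines.

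Testes came from males of 8 lines. The parental line was an irradiated stock with the X chromosome Dp(1;1)scV1 and its visible markers, kept with C(1)M4 females. The 7 translocation lines carried the same marked X in a reciprocal exchange with chromosome 2, T(1;2), of which BM1, BM5, BM6, BM24 and BM46 were male-sterile and kept over FM7i, P{ActGFP}JMR3, and BM4 and BM21 were fertile and kept with C(1)M4. The sterile lines thus shared one balancer and the fertile ones the attached-X females, so sterility and the way a stock was kept cannot be told apart. Each of the 7 was 1 translocation. All 8 lines had 4 pools of 15 L3 testes and 4 pools of 20 adult testes (adults 1 to 5 days old). L3 larvae were taken when immobile and before spiracle eversion, their fat body was digested away, and adult testes were parted from the seminal vesicle. Poly(A) RNA was counted per gene.

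L3 libraries held 8961413 to 21275143 counts and adult libraries 20387 to 24650332. Only 3 adult libraries lay under 1000000, BM6 replicate 3 and BM24 replicates 2 and 3, and adult levels below leave them out while tests keep them unless stated. The 9 germline markers summed to means of 1699 to 2054 CPM in L3 and 2759 to 4061 CPM in adult testes of the 8 lines, so germline RNA was present in every group. In the parental line only Mst87F (654 CPM in L3, 1253 in adults) and dj (636 and 1233) of these were higher in adults. The others, vas, nos, bam, bgcn, aly, can and sa, were lower there, for example vas at 38.9 and 16.5 CPM. Salivary gland glue genes were near 0, at most 0.403 CPM in the mean of any group. Accessory gland markers were uneven in adults, with group means of 33.7 to 1800 CPM, and 26.9 to 32.7 CPM in L3. In bulk RNA fewer cells of a type and less RNA per cell cannot be told apart. The labels do not say that pools came from separate crosses, so p-values measure the spread between pools.

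As background, the testis of a larva late in the third instar is filled with spermatogonia and growing spermatocytes, while that of an adult is dominated by spermatids and sperm. The pulse of ecdysone at the end of larval life drives nuclear receptors, fat body genes and cuticle genes. Reciprocal exchanges between the X and an autosome often leave Drosophila males sterile.

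Of the 53 members, 47 code for proteins, 4 are noncoding RNAs and 2 are annotated pseudogenes. By arm, 11 lay on the X, 13 on 2L, 7 on 2R, 16 on 3L and 6 on 3R. The X held 20.8% of members against 16.6% of genes at the L3 level, 3L 30.2% against 19.3%, and 3R 11.3% against 23.8%. Median exon length was 1115 bases in members and 1878 bases in genes at the L3 level. Identifiers and coordinates of all 53 matched the Ensembl BDGP6 annotation. Exons of 22 members overlapped a gene on the opposite strand, and 3 overlapped one on the same strand, so their counts are uncertain, the sources used here giving no strand setting for the counting. Of 24 lists of pathway and tissue genes, 8 held a member, and 44 of the 53 were in none, matched by the symbols of the count table. The replication and cell cycle list names Pol31 by its other symbol, PolD2, so this match missed it. The groups below were drawn up after values were seen.

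The parental ratios crowded at the limit. CG10993 (3.01) and CG13801 (3.02) lay just inside, and CG14020 (3.00 when rounded) and Art6 (2.99) just outside. At the level limit E5, with 5.30 CPM, lay inside and CG6356, with 4.99 CPM, outside. In parental libraries L3 exceeded adult CPM for 74.3% of the 8561 genes at the L3 level that remain when the symbols above are left out, with a median ratio of 1.48.

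The most abundant member was lncRNA:CR43264 (X, 5831898 to 5832215, minus strand), a noncoding RNA, at 386, 513, 395 and 570 CPM in the 4 parental L3 libraries and 148, 168, 159 and 123 CPM in the adults. CG32259 (3L, 4069369 to 4070281) stood at 142, 175, 180 and 177 CPM in L3 and 53.3, 55.5, 56.6 and 44.1 CPM in adults. SC35 (2L, 12431075 to 12434665), a splicing factor of the SR family whose exons overlap eRF3 on the other strand, had 120, 128, 109 and 127 CPM in L3 against 36.7, 37.0, 43.0 and 40.0 CPM. For these members every L3 library lay above every adult library. Per exon length the RNA of lncRNA:CR43264 also led, at 1465 CPM per kilobase, before CG32259 at 205 and Vha16-3 at 120, on the same scale.

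The largest parental ratio, 38.6, was that of Prosalpha1, an alpha subunit of the proteasome. It rested on single libraries. Its parental L3 values were 0, 56.02, 10.4 and 0.840 CPM, and its adult values 0, 0.243, 1.50 and 0. Values of the same kind recurred in the translocation lines, with 51.8 CPM in L3 BM4 replicate 1, 48.8 in L3 BM24 replicate 4, 26.5 in adult BM5 replicate 3 and 24.8 in adult BM1 replicate 4, and at most 1.37 CPM in the other replicates of L3 BM4. A near-identical copy, CG30382, sits in the annotation and had a mean of 0.0359 CPM in parental L3 and of 0 in parental adult libraries, so the split of reads between copies is uncertain.

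The next ratios belonged to surface and secreted proteins. Cpr49Ac (2R, 12386666 to 12390057), a cuticular protein, had a ratio of 12.2, ltl (3L, 7518997 to 7528013), a leucine-rich-repeat protein that acts in wing disc growth, 9.77, and Kal1, the fly counterpart of anosmin, 4.52. The larval fat body gene Fbp1 (3L, 14094589 to 14098053), which encodes a larval serum protein receptor, had 8.84.

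Only part of the list met the same rule in another line. It held for 22 members in BM1, 19 in BM5, 26 in BM6, 20 in BM24, 25 in BM46, 15 in BM4 and 18 in BM21. Among all 17606 genes it held for 690 in BM1, 247 in BM5, 467 in BM6, 414 in BM24, 255 in BM46, 80 in BM4 and 85 in BM21, so members were 3.19% of the BM1 list and 21.2% of the BM21 list. All 7 lines met it for Fbp1, Fbp2, ltl, Cpr49Ac, robo2, Kal1 and betaNACtes5, while 10 members met it in none: CG10993, CG13426, LSm7, CG7194, CG10802, Nle, CG5945, CG15912, asRNA:CR46092 and CG13742. Median L3 over adult CPM of members was 2.43 in BM4 and 3.02 in BM6, the lowest and highest line, and that of all genes at the L3 level of a line was 1.50 to 1.67 in the 7 lines.

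**Figure D1:**
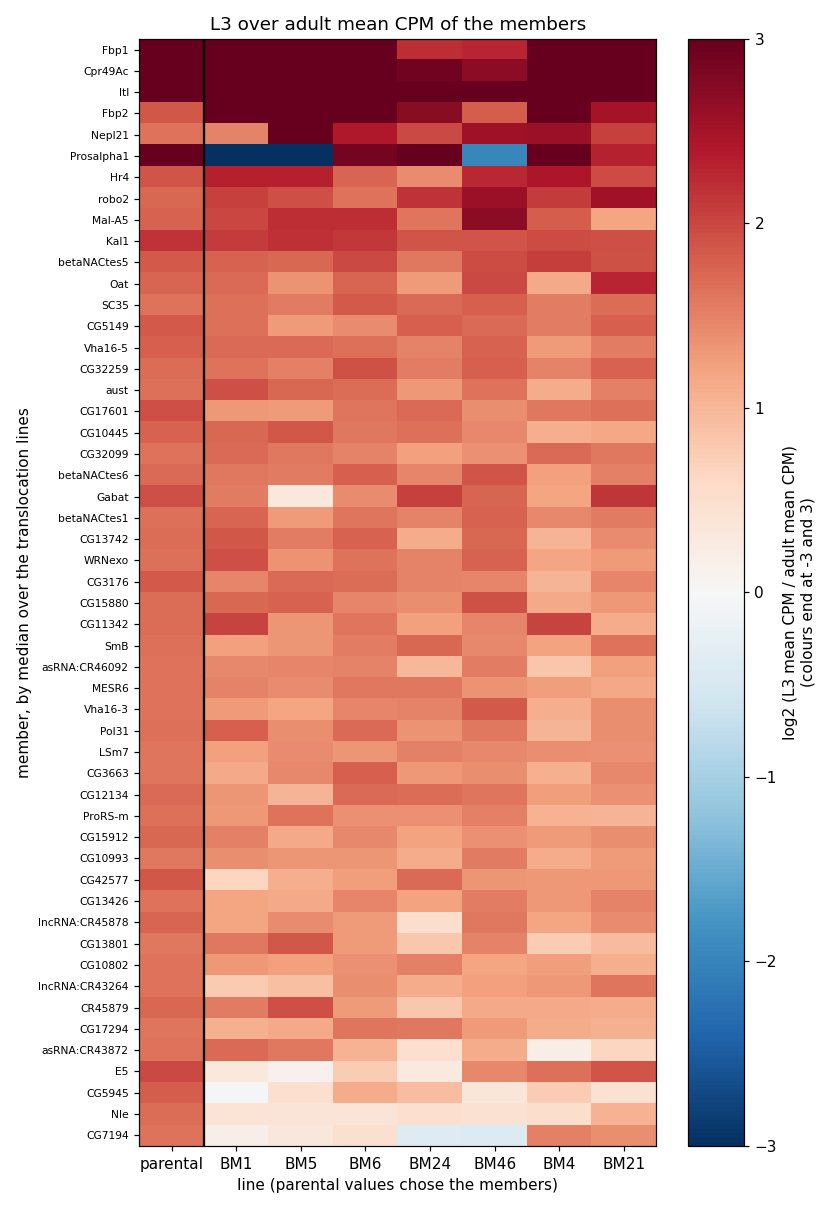
L3 over adult mean CPM of 52 of the 53 members (rows) in the 8 lines (columns), as log2 on a colour scale that ends at -3 and 3, with adult libraries under 1000000 counts left out. Red means more in L3. Fbp1, Cpr49Ac and ltl are red in every line, Prosalpha1 changes colour between lines, and CG7194 is near white or blue in the sterile lines.

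The stage difference was then tested in each translocation line, in libraries that had no part in choosing the members. The label codes of these lines had row letters A to C in L3 and D to F in adults. Stage and row letter therefore cannot be told apart. Nearly all members were lower in adult than in L3 testes, in sterile and fertile lines alike. With edgeR's quasi-likelihood test and a Benjamini-Hochberg adjusted p under 0.05, 46 of 53 fell in BM1, where 38% of all 13020 genes tested fell. The count was 45 in BM5 (35.5% of all genes), 48 in BM6 (36.2%), 42 in BM24 (34%), 47 in BM46 (36.5%), 50 in BM4 (36.4%) and 48 in BM21 (35.6%). Members higher in adults numbered 2 in BM1, where 39.2% of all genes were higher, 1 in BM5 (36.4%), 0 in BM6 (38.9%), 2 in BM24 (35%), 1 in BM46 (35.6%), 0 in BM4 (36.1%) and 0 in BM21 (36.7%). The median log2 difference of the members was −0.87 in BM4 to −1.13 in BM6, against −0.02 to 0.04 for all genes. In all, 37 members fell in all 7 lines. The share of all genes that did so was not counted and cannot exceed the 34% of BM24. The most abundant one, lncRNA:CR43264, was not among them and fell in 5 lines. It stood at −0.28 ± 0.22 in BM1 (edgeR adjusted p = 0.244) and −0.42 ± 0.22 in BM5 (0.0817). In CPM its L3 mean was 1.71 to 3.03 times its adult mean, without overlap of deep libraries in 7 lines. Scaling by library size alone moved the median of all genes to between −0.39 and −0.48 and gave 48 to 52 members lower, against 6252 to 7081 of all genes.

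**Figure D2:**
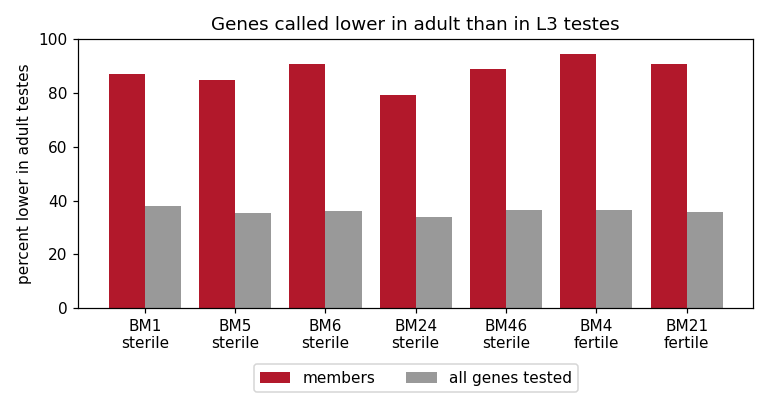
Percent of the 53 members (red bars) and of all 13020 genes tested (grey bars) called lower in adult than in L3 testes, for each translocation line (edgeR, adjusted p under 0.05). Members stand between 79.2% in BM24 and 94.3% in BM4, and all genes between 34% and 38%.

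The splicing factor SC35 was lower in adults in every line, by log2 differences from −1.09 ± 0.10 (SE) in BM5 to −1.38 ± 0.11 in BM6, with edgeR adjusted p-values up to 3.84e-12. In BM4, for example, it had 137, 131, 124 and 136 CPM in L3 against 37.7, 45.1, 55.3 and 42.8 CPM in adults, with no overlap. SmB, a core protein of the spliceosomal ribonucleoproteins, and LSm7, of the related ring on U6 RNA, also fell in 7 of 7 lines. Of the genes of the same families that are not members and are reported here, most fell too: SF2, B52, Srp54, x16, Rsf1, SmD2, SmE, SmF and LSm3 in 7 lines, and SmD3 and LSm1 in 6. SmD1 fell in 2 lines and was higher in 1, but fell in 7 when scaled by library size alone, which shifts all genes.

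Testis copies of the beta subunit of the nascent polypeptide-associated complex, a ribosome-bound factor that meets new protein chains, behaved alike. The members betaNACtes1, betaNACtes5 and betaNACtes6 and the further X-linked copies betaNACtes2, betaNACtes3 and betaNACtes4 fell in 7 of 7 lines, with log2 differences of −0.71 to −1.66. The general subunit gene on 2R, bic, was between −0.05 and 0.14 and passed in no line, but fell in 7 lines (−0.34 to −0.47) when scaled by library size alone, which is about the shift of all genes. The copies are similar in sequence, so reads may be shared among them.

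Among the proteolipid genes of the vacuolar proton pump, the members Vha16-3 and Vha16-5 fell in 7 lines, as did Vha16-4, which is not a member. Vha16-2 fell in 5. The general gene Vha16-1 was higher in adults in 6 lines, by 0.08 to 0.79 over the 7, and scaling by library size alone left 4 lines higher and turned 1 lower.

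The next members were set together after their values were seen, and each fell in 7 lines. Pol31 (PolD2), a subunit of DNA polymerase delta, had differences of −0.61 to −1.30. Most genes of the replication and cell cycle list fell too, 73 to 94 of 108 tested per line, and 2 to 7 rose. WRNexo, an exonuclease related to the Werner syndrome protein, had −0.77 to −1.43, and aust, a chromosomal passenger protein of male meiosis, had −0.70 to −1.43. In BM1 aust had 36.4, 36.7, 35.5 and 32.0 CPM in L3 and 8.33, 9.70, 9.98 and 8.76 CPM in adults, with no overlap. Exons of aust overlap tai on the other strand. Oat, which degrades ornithine, and ProRS-m, the mitochondrial prolyl-tRNA synthetase, fell in 7 lines, and Gabat, which degrades GABA, in 6, with BM5 the line that did not pass.

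For ltl the difference ran from −2.99 ± 0.21 in BM21 to −5.08 ± 0.26 in BM4, past the edgeR threshold in 7 lines. In BM4 it had 44.5, 48.6, 88.7 and 45.1 CPM in L3 and 1.59, 0.837, 1.30 and 1.41 CPM in adults. The Slit receptor robo2 (−1.14 to −2.11) and Kal1 (−1.43 to −1.72) fell in 7 lines each. So did Hr4, an ecdysone-induced nuclear receptor, from −0.86 ± 0.33 in BM24 to −1.999 ± 0.26 in BM4. Of 39 tested genes in the ecdysone list, which holds Hr4, only 8 to 12 fell and 10 to 14 rose per line. With scaling by library size alone 17 to 22 fell and 6 to 10 rose, so the balance of that list turns with the scaling. Nepl21, a neprilysin-like gene, fell in 7 lines and the maltase gene Mal-A5 in 6. In the sugar metabolism list, which holds Mal-A5, 3 to 8 of 45 tested genes fell and 29 to 33 rose per line. In the list of developmental ligands and receptors, which holds robo2, 42 to 54 of 119 fell and 31 to 45 rose. Of 98 tested genes in the cuticle list, which holds Cpr49Ac, 10 to 13 fell and 45 to 60 rose per line. In the basement membrane list, which holds ltl, 8 to 14 of 36 fell and 8 to 17 rose, and in the protease list, which holds Nepl21, 10 to 16 of 92 fell and 38 to 52 rose. With scaling by library size alone the basement membrane list turned, with 14 to 24 lower and 7 to 11 higher.

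Cpr49Ac and the fat body members fell in most lines. Their values depended on shallow adult replicates 2 and 3 in BM24 and on adult replicate 1 in BM46. Cpr49Ac kept its call in BM46 with any 1 library left out, at −1.90 to −4.51. In BM6 Fbp1 had 809, 648, 185 and 708 CPM in L3 and 0.228, 0.116 and 0.209 CPM in the 3 deep adult libraries. The fitted fall there was −11.12 ± 2.28 (edgeR adjusted p = 2.72e-05). It passed in BM1, BM5, BM6 and BM4, and so did Fbp2, a second larval fat body gene. Cpr49Ac passed in every line but BM24, where DESeq2 put it higher in adults, at 2.27 (adjusted p = 0.0062). In BM24 the fit put Fbp1 higher in adults, 3.40 ± 1.20 (edgeR adjusted p = 0.0109), from shallow replicates 2 and 3 at 5179 and 3460 CPM (1207 and 150 counts) beside 0.432 and 90.7 CPM in replicates 1 and 4. The other 7 fat body markers were Lsp1alpha, Lsp1beta, Lsp1gamma, Lsp2, apolpp, Apoltp and fon. They summed to 3523 and 5491 CPM in those shallow libraries and to 136 and 228 CPM in the deep ones. Without the libraries under 1000000 counts Fbp1 stood at −1.77 (edgeR adjusted p = 0.203), Fbp2 at −2.26 (0.0358) and Cpr49Ac at −2.46 (0.0016). In adult BM46, replicate 1 held 364 CPM of Fbp1 and replicates 2 to 4 held 1.11, 0.574 and 1.06. The same 7 markers summed to 593 CPM in replicate 1 and 137 to 143 CPM in the others. Leaving it out took Fbp1 from −1.87 to −8.45 and Fbp2 from −1.41 to −5.18, both then past the threshold. What part fat body tissue had in these values was not tested. Of 61 tested genes of the wider fat body list, 6 to 10 fell and 35 to 45 rose in adults.

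In these tests a few members did not keep their parental difference. Nle, a factor of large ribosomal subunit maturation, fell in BM21 (−0.62 ± 0.12) and in the other 6 lines lay between −0.13 and 0.09. Library size scaling, which shifts all genes, put it at −0.39 to −0.44 in BM1, BM5, BM6 and BM46. In CPM its L3 mean was 1.31 to 2.05 times its adult mean over the 7 lines, without overlap of deep libraries in 6. Its adult level was 6.43 ± 0.799 CPM in the parental line and 8.93 ± 1.09 in BM21 (SD, n = 4), and 17.0 to 20.8 CPM in the means of the other 6. By contrast, 46 to 50 of the 59 tested ribosome biogenesis genes, the list that holds Nle, fell per line and 2 to 5 rose. CG5945 passed in no line, with differences of −0.66 to 0.55, but in BM46 stood at −0.75 (edgeR adjusted p = 0.0345) without adult replicate 1. The smallest median differences over lines otherwise were those of CG7194 (0.13), E5 (−0.32), asRNA:CR43872 (−0.58) and CG17294 (−0.71), of which CG17294 fell in 7 lines. E5 fell in BM46, BM4 and BM21, with differences of −0.98 to −1.47, and lay between −0.32 and 0.33 in the other 4 lines.

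CG7194 (3L, 8302364 to 8304059) was called in both directions, as were Fbp1 and Prosalpha1. It was higher in adults in BM24 (0.86 ± 0.11), BM46 (0.88 ± 0.10) and BM1 (0.32 ± 0.10), and lower in BM4 (−1.11 ± 0.11) and BM21 (−0.99 ± 0.11), by edgeR. BM46 had 38.1, 44.7, 38.6 and 47.7 CPM in L3 and 55.2, 57.1, 56.7 and 56.7 CPM in adults. BM4 had 27.7, 26.03, 27.9 and 26.4 CPM in L3 and 9.36, 8.24, 10.1 and 10.2 CPM in adults. Stages did not overlap in either line and lay in opposite order. By library size alone BM1 stood at −0.18 (edgeR adjusted p = 0.0857) and BM5 at −0.34 (0.00184). In CPM all deep adult libraries of CG7194 lay below all L3 libraries in BM5 and BM6 as well. Prosalpha1 was called higher in adults in BM1 and BM5 and lower in BM24 and BM4. Each of these 4 calls was lost without a single library (adult BM1 replicate 4, adult BM5 replicate 3, L3 BM24 replicate 4 and L3 BM4 replicate 1), the BM24 call also without adult replicate 1 or 4.

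**Figure D3:**
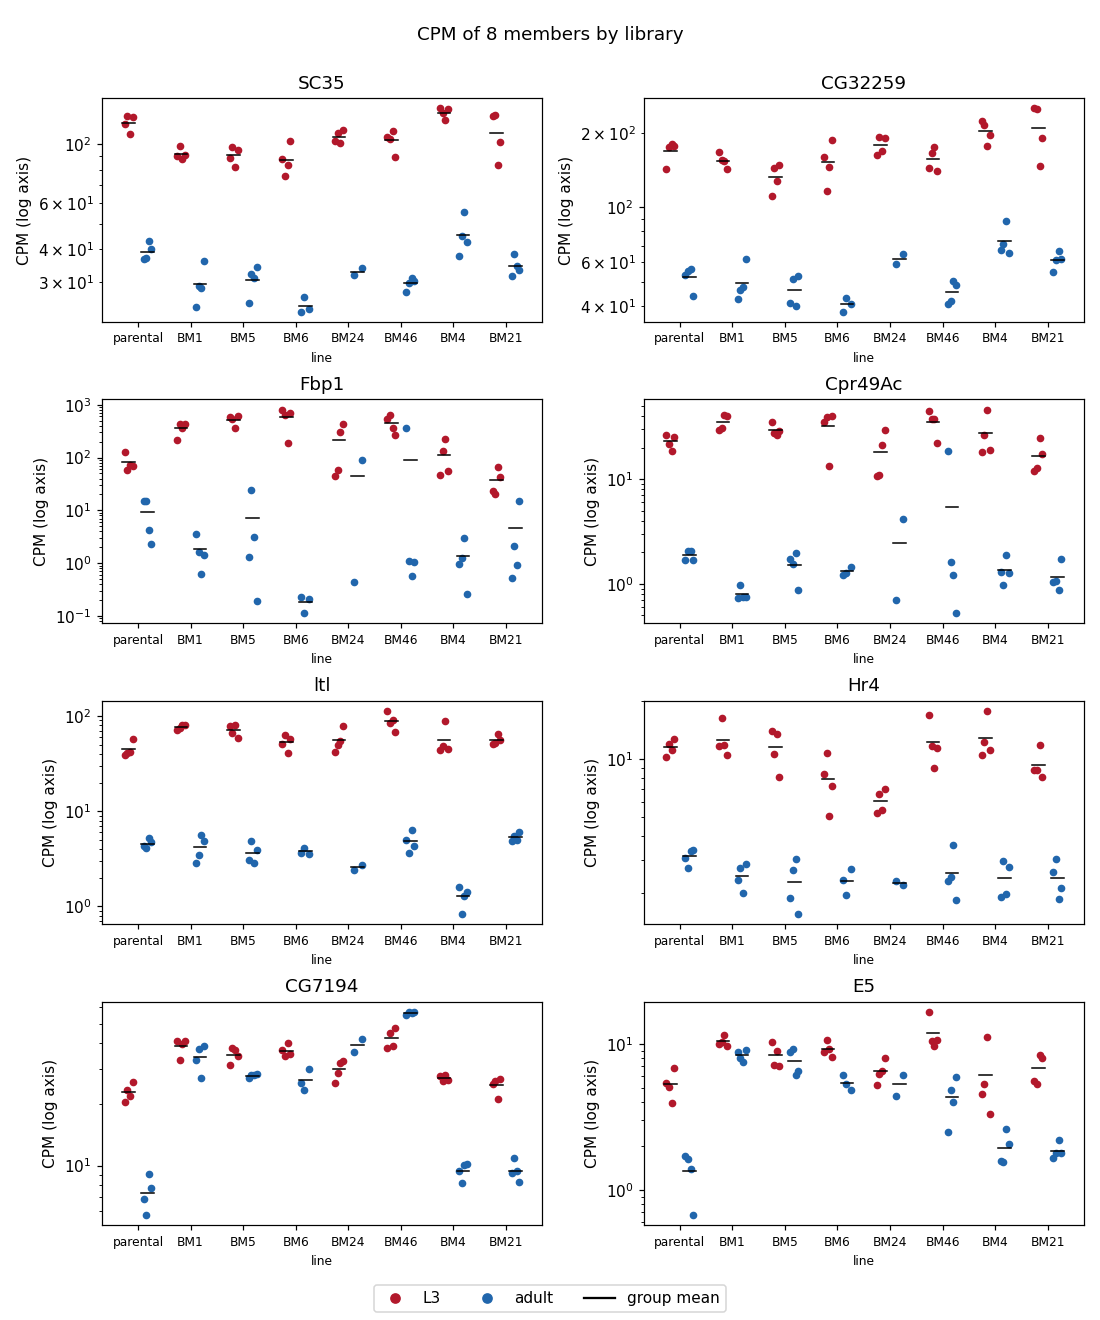
CPM (log axis) of 8 members in each library, by line, with L3 in red, adult in blue and a bar at the group mean; adult libraries under 1000000 counts are not drawn. SC35, CG32259, ltl and Hr4 separate by stage in all 8 lines, Fbp1 and Cpr49Ac have 1 high adult BM46 library, and adult CG7194 and E5 are higher in the sterile lines than in BM4, BM21 and the parental line.

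Levels in L3 testes also differed among the 7 lines. By the edgeR test of any difference, 44 of 53 members passed, 83.0%, and 82.1% of all 12060 genes did, so the members' share was near that of all genes. CR45879, an annotated pseudogene (3L, 10127504 to 10128618), had the smallest edgeR adjusted p, 4.85e-16. It fell into 2 levels, 17.0 ± 0.518 CPM in BM24, 16.3 ± 2.33 in BM4 and 18.6 ± 1.95 in BM21, against 5.16 to 6.49 CPM in the means of the other lines and 5.61 in the parental line. Libraries of those 3 lines ranged from 14.3 to 21.1 CPM and those of the other 4 translocation lines from 4.86 to 7.21, without overlap. Adult means split the same way, at 9.69, 7.45 and 8.58 CPM against 1.598 to 2.93. This was not the sterile and fertile split. Outside CR45879, Fbp1, Fbp2 and Prosalpha1, the highest line mean in L3 was at most 2.83 times the lowest, and for aust it was 1.25 times.

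Each line was also set against the mean of the other 6 in L3. BM1 had 7 of 53 members called (24.8% of all genes), BM5 16 (32.1%), BM6 20 (28.2%), BM24 21 (32.9%), BM46 16 (34.8%), BM4 19 (49.5%) and BM21 22 (35.8%). Lower members numbered 4 in BM1 (10.9% of all genes), 13 in BM5 (15.2%), 16 in BM6 (12.5%), 7 in BM24 (15.1%), 3 in BM46 (15.9%), 6 in BM4 (24.9%) and 7 in BM21 (17%). Higher ones numbered 3 in BM1 (13.9%), 3 in BM5 (16.9%), 4 in BM6 (15.7%), 14 in BM24 (17.9%), 13 in BM46 (18.9%), 13 in BM4 (24.6%) and 15 in BM21 (18.8%). The median of the members lay between −0.18 in BM6 and 0.10 in BM21. Leaving out 1 library changed some counts by over 1.5 times. The BM1 count became 13 without BM21 replicate 3 and 4 without its own replicate 3. Those of BM6 and BM24 became 10 without their own replicate 2, and that of BM46 became 10 without its replicate 1. The shares of all genes in these fits are not given here, so the changed counts cannot be set against a general rate.

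In BM1 the largest calls were Fbp2 (0.90 ± 0.32) and lncRNA:CR45878 (0.38 ± 0.13) upward and CR45879 (−0.84 ± 0.10) and Gabat (−0.50 ± 0.12) downward. BM5 had Fbp1 (1.34 ± 0.37) and Nepl21 (0.58 ± 0.18) above, and Gabat (−0.77 ± 0.12) and CG5149 (−0.70 ± 0.09) below. In BM6, Fbp1 (1.51 ± 0.36) and Fbp2 (1.29 ± 0.30) were above and CR45879 (−0.97 ± 0.09) and CG11342 (−0.51 ± 0.12) below. BM24 was high in Prosalpha1 (4.41 ± 0.97) and CR45879 (1.00 ± 0.08) and low in Nepl21 (−0.93 ± 0.21) and Hr4 (−0.90 ± 0.19). In L3 Hr4 had 5.25, 6.55, 5.43 and 6.95 CPM in BM24 and 16.9, 11.8, 8.96 and 11.5 CPM in BM46, without overlap. BM46 was high in Fbp1 (1.06 ± 0.37) and Fbp2 (0.97 ± 0.31) and low in CG5945 (−0.78 ± 0.17) and CR45879 (−0.57 ± 0.09).

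The fertile lines shared low fat body members. BM4 had Prosalpha1 (4.33 ± 0.95) and CG11342 (1.17 ± 0.11) above and Fbp2 (−1.91 ± 0.42) and Fbp1 (−1.31 ± 0.46) below. For CG11342 the 4 libraries of BM4 read 11.4, 12.3, 8.67 and 10.1 CPM, the means of the other translocation lines were 3.76 to 6.26 CPM, and the parental mean was 7.30 CPM. BM21 had CR45879 (1.18 ± 0.08) and CG13742 (0.82 ± 0.13) above and Fbp1 (−3.10 ± 0.54) and Fbp2 (−2.16 ± 0.44) below. The Prosalpha1 calls rested on single libraries, since without L3 BM24 replicate 4 the value was 2.101 (edgeR adjusted p = 0.213) and without L3 BM4 replicate 1 it was −0.33 (0.905).

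**Figure D4:**
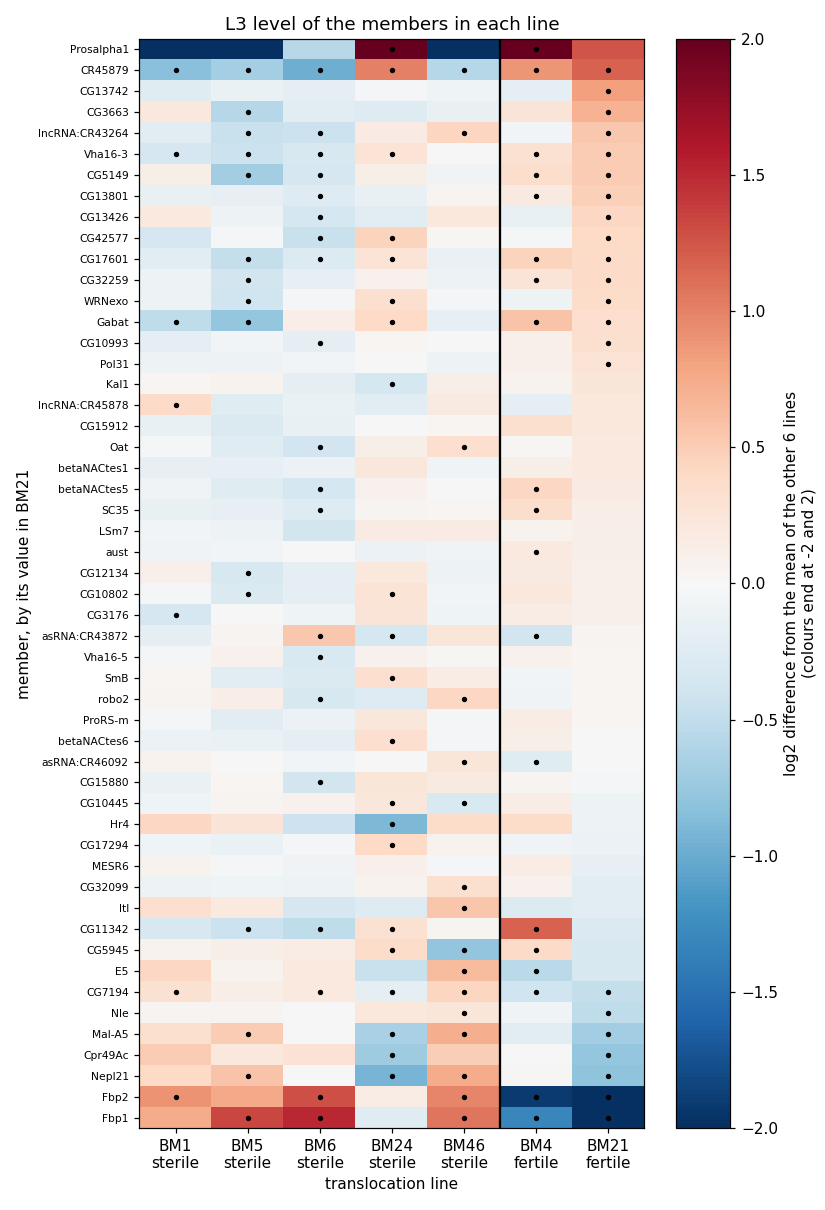
Log2 difference of the L3 level of 52 of the 53 members in a line from the mean of the other 6 translocation lines (edgeR, TMM scaling), on a colour scale that ends at -2 and 2. Dots mark an adjusted p under 0.05, and the black line parts the 5 sterile from the 2 fertile lines. Fbp1 and Fbp2 are low in BM4 and BM21, and CR45879 is high in BM24, BM4 and BM21.

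Last, the 5 sterile and 2 fertile translocation lines were compared on sums of each line's libraries, with the line as the replicate. In L3 testes, Fbp2 was higher in sterile lines by 2.45 ± 0.26 (edgeR adjusted p = 0.00135) and Fbp1 by 2.48 ± 0.52 (0.0278), and CG32259 was lower by edgeR, at −0.40 ± 0.10 (0.0488). These were 2 of 53 members higher and 1 lower, against 2.61% and 1.93% of all 13335 genes. Fbp2 means were 34.5 to 65.7 CPM in the sterile lines and 9.84 and 8.46 CPM in BM4 and BM21, and Fbp1 means 211 to 588 CPM against 114 and 37.7 CPM. The line means did not overlap, but single libraries of sterile and fertile lines did for both genes. Fertile BM4 replicate 3 held 3515 counts of Fbp1 and 296 of Fbp2 in 15803581. Sterile BM24 replicate 2 held fewer, 824 and 169 in 14361442. The parental line, also on C(1)M4, had 12.4 ± 5.40 CPM of Fbp2 and 80.6 ± 30.1 CPM of Fbp1. CG32259 means were 133 to 179 CPM in sterile and 204 and 209 CPM in fertile lines. Its call was lost in 6 of the 7 fits that left out a line, all but the one without BM24, while Fbp2 kept its call in all 7. The call of Fbp1 was lost without BM46 (edgeR adjusted p = 0.055) or BM21 (0.122). With the row letter of the label codes in the model Fbp1 (0.0572) and CG32259 (0.074) did not pass by edgeR, while Fbp2 did (0.00833).

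The fat body markers moved with these genes. Without Fbp1 and Fbp2, the 7 others summed in L3 to means of 608 to 1106 CPM in the sterile lines, 240 CPM in BM4, 132 CPM in BM21 and 176 CPM in the parental line, and none was at 0 in any L3 library. Among these 7 are the Lsp genes, which met the member rule and were set aside by symbol, so the sum is not a measure apart from the rule. The rest did not share that stage difference: parental L3 and adult means were 53.3 and 46.1 CPM for apolpp, 3.11 and 9.06 for Apoltp, and 6.51 and 16.3 for fon. Within a line they moved together as well. In L3 BM24 replicates 1 to 4, Fbp1 was at 45.0, 57.4, 308 and 432 CPM, Cpr49Ac at 10.7, 11.1, 21.3 and 29.2 CPM, and the 7 markers at 188, 204, 848 and 1501 CPM. Replicates 1 and 2 were the low ones on each measure. In L3 BM6, replicate 3 was lowest for Fbp1 (185 CPM), Cpr49Ac (13.2), ltl (40.8) and the markers (323). The part of fat body RNA in the difference between sterile and fertile lines was not tested.

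In adult testes, CG7194 was higher in sterile lines by 2.07 ± 0.32 (edgeR adjusted p = 0.0267) and E5, a homeobox gene on 3R (13867345 to 13874916), by 1.84 ± 0.32 (0.0421). They were 2 of 53 members, against 0.717% of all 13812 genes higher, and 0 members were lower, against 0.666%. At an unadjusted p under 0.05, 12 of 53 members differed, and so did 2315 of the 13812 genes. CG7194 means were 26.3 to 56.4 CPM in the sterile lines, 9.46 and 9.44 CPM in BM4 and BM21, and 7.36 CPM in the parental line. For E5 they were 4.33 to 8.36 CPM, 1.95 and 1.86 CPM, and 1.34 CPM. Line means did not overlap for either gene. Without BM4 or BM21 both calls were lost, with edgeR adjusted p-values of 0.247 and 0.194 for CG7194 and 0.332 and 0.245 for E5. The E5 call was also lost without BM5, BM6 or BM46. With the row letter of the label codes in the model neither passed, with edgeR adjusted p-values of 0.05004 and 0.06396.

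In L3 testes the corresponding differences were 0.53 ± 0.14 for CG7194 and 0.55 ± 0.24 for E5, neither past the edgeR threshold (0.0655 and 0.236). Whether the stage difference itself differed between sterile and fertile lines was tested with the line as a block. By edgeR 0 of 53 members and 0 of 14223 genes (0%) passed, with 6 members and 1183 genes at an unadjusted p under 0.05. CG7194 had the largest such difference among those 6, at 1.48 ± 0.25 (edgeR adjusted p = 0.231), and DESeq2 called it, 1 of the 53 members. How many of all genes DESeq2 called in this test is not given here, so its call cannot be set against a general rate.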

How the data were processed

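The deposited table holds, for each gene, the number of reads the authors counted (whole-number counts, not normalized), made with bcl2fastq 1.8, cutadapt, HISAT2 2.1.0 and featureCounts 1.6.1 per the submitters' processing notes. No source used here names the genome build or the strand setting. Per the labels' protocols, strand-keeping poly(A) libraries were made from 350 ng of RNA and read as 50 bp single ends. CPM is a count per 1000000 of the library total. Tests used edgeR 4.0.16 in R 4.3.3 (quasi-likelihood, TMM scaling, filterByExpr, Benjamini-Hochberg over all genes tested), on the 56 translocation libraries for stage, the 28 L3 ones for lines, and sums per line for sterility. SE is the log2 difference over the root of its F statistic. DESeq2 1.42.0, library size scaling, no filter, a replicate block, a row-letter covariate and leaving out libraries or lines were alternatives. The fits were tested on simulated data. No library repeated another (0 of 96 pairs identical). The members, lists and groups were chosen with earlier results of these data known. Genes named are the 12 most abundant members and the 12 of largest ratio, members of the gene lists, the 2 largest calls each way per line, up to 6 for sterility, and those with the smallest or opposite stage difference; other members illustrate families and were chosen after their values were seen. Deviations of same-numbered libraries from their group means had a median correlation of −0.02 between stages of a line. Between L3 lines 10 of 84 same-numbered pairs and 17 of 252 others had a correlation over 0.1. Numbers were therefore not used as pairs, though these values cannot show that samples were unpaired. Promoter motifs were not analysed here. Single values of 1 member and of some genes of the splicing families are not reported here; counts include that member.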

Additional observations from a re-analysis of the deposited data

Results flagged for a closer look

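Library values of 14 members were examined in the groups with 4 deep libraries, 196 sets of 4 in all. In 23 sets the highest or lowest library stood far from the others. The limit used gives about 1 in 20 for normal values. That rate is no yardstick here, since the 14 are members whose library values are given above and Prosalpha1 was often near 0. Prosalpha1 gave 9 of them: 0.463 CPM in L3 BM1 replicate 1, 51.8 in L3 BM4 replicate 1, 9.85 in L3 BM21 replicate 4, 48.8 in L3 BM24 replicate 4, 1.00 in L3 BM46 replicate 3, 1.50 in adult parental replicate 3, 24.8 in adult BM1 replicate 4, 26.5 in adult BM5 replicate 3 and 3.85 in adult BM46 replicate 4. Adult BM46 replicate 1 stood apart for 4 members, with 364 CPM of Fbp1, 57.4 of Fbp2, 18.5 of Cpr49Ac and 2.80 of CG11342. Fbp1 was also high in adult BM5 replicate 2 (24.4 CPM) and adult BM21 replicate 4 (15.0 CPM). L3 BM4 replicate 3 was high for ltl (88.7 CPM) and low for lncRNA:CR43264 (334 CPM), and adult BM4 replicate 3 was high for the latter (228 CPM). Single cases were CG32259 in L3 parental replicate 1 (142 CPM, low), CR45879 in L3 BM6 replicate 1 (5.88 CPM) and adult BM5 replicate 4 (1.86 CPM), E5 in L3 BM46 replicate 1 (16.6 CPM) and Cpr49Ac in adult BM1 replicate 2 (0.982 CPM). CG7194 moved in opposite directions, with adult minus L3 log2 differences of 0.88 in BM46, where all adult libraries lay above all L3 libraries, and −1.11 in BM4, where all lay below. The difference between these lines was not tested.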

How the results depend on the processing

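Counts of members lower in adults stayed within 1.5 times the reported value under every setting and left-out library, at 36 to 45 in BM24 and 44 to 50 in the other lines when libraries were left out. The replicate block gave 46, 45, 48, 42, 49, 50 and 49 in BM1, BM5, BM6, BM24, BM46, BM4 and BM21, and for line against line in L3 it gave 7, 17, 18, 21, 16, 19 and 22. Numbers were not taken to pair samples in the main fits, and of single results 5 lost and 6 gained a call under the replicate block. With 1 library left out, line counts in L3 ranged from 10 to 19 in BM46, 10 to 23 in BM24, 4 to 13 in BM1 and 10 to 24 in BM6. With 1 line left out, members higher in sterile lines numbered 1 to 3 in L3 and 0 to 2 in adults, and lower ones 0 to 5 and 0 to 3. The row letter gave 1 higher member in L3 and 0 in adults. Lower members in L3 numbered 2 by library size, 4 by DESeq2 and 0 with no filter, and DESeq2 gave 2 lower in adults and 1 in the test of stage by sterility. The shares of all genes under these settings are not given in this section, so its member counts cannot be set against them. The direction turned, where either value was called, by library size for CG7194 in BM1 (−0.18) and BM5 (−0.34) and for Nle in BM1 (−0.42), BM5 (−0.40), BM6 (−0.39) and BM46 (−0.44), by DESeq2 for Cpr49Ac in BM24 (2.27), and without the shallow libraries for Fbp1 (−1.77) and Fbp2 (−2.26) in BM24. With 1 library left out the stage difference ranged from −0.27 to 3.998 for Fbp1 in BM24, −0.84 to 7.21 for Prosalpha1 in BM1 and −0.75 to 0.33 for CG5945 in BM46, and the L3 difference of Prosalpha1 in BM4 from −0.33 to 5.16. The cause of shifts not tied to a left-out sample was not tested. With 5 lines against 2, few lines limit the test of sterility, and low counts limit members near 5 CPM.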
